A study of Haliotis discus hannai with 24 samples.

Results

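The 94 genes described here were silent in the epipodial tentacles of some replicate numbers of the abalone Haliotis discus hannai and well expressed in those of others, with the left and the right tentacle alike. They were chosen from 19700 listed genes on CPM, the count of a gene per 1000000 counts of its library. A gene was taken if it had 0 counts in both epipodial libraries of at least 1 number, at least 20 CPM in both epipodial libraries of at least 1 other number, and at least 20 CPM in at least 1 eyestalk library and at least 1 cephalic tentacle library. Below, a number is off for a gene in the first case and on in the second. The rule was to stop at the 200 genes with the highest epipodial mean, but only 94 genes met it. The epipodial values chose the genes and are given as a description, with no test. The values of the eyestalk and the cephalic tentacle, together called the head organs here, entered the rule through their highest library, whatever its number.

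The series holds polyadenylated RNA of 24 libraries: left and right eyestalks, left and right cephalic tentacles, and left and right epipodial tentacles, with replicate numbers 1 to 4 in each of the 6 groups. The labels give every sample as aquaculture stock, with excision of an organ as the treatment, and 1 batch value for all, and name neither an age nor how many animals were sampled. They also do not say whether a number stands for 1 animal. If it does, the 4 head libraries of a number are organs of that animal, and p-values below cover the spread between libraries but not between animals. The epipodial libraries labelled left carry the title letter that elsewhere marks the right side, and their treatment label names the cephalic tentacle. Sides are given by the tissue label, and the choice of the genes does not depend on which epipodial side is which.

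The eyestalk of an abalone carries its eye, and the paired cephalic tentacles of the head and the many epipodial tentacles along the foot are chemosensory and mechanosensory. Genes that some individuals of a species carry and others lack are known from the genomes of bivalve molluscs, another class of the phylum. The deposited tables do not pair identifiers with names, so no function can be given to any of the 94 genes. No genome of these animals was used here, so a gene that is missing and a gene that is silent cannot be told apart. In bulk RNA, fewer cells of a type and less RNA per cell cannot be told apart either.

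Library totals were 1692939 to 4479096 counts in the eyestalk, 473072 to 1939936 in the cephalic tentacle and 1700095 to 2146464 in the epipodial tentacle. A value of 20 CPM stood for 33.9 to 89.6 counts in the eyestalk, 9.46 to 38.8 in the cephalic tentacle and 34.0 to 42.9 in the epipodial tentacle. A count of 0 allowed up to 3 counts, which is 0.67 to 1.77 CPM, 1.55 to 6.34 CPM and 1.40 to 1.76 CPM in these organs; these limits and the intervals of ratios below cover counting error only. Fewer than 6000 genes were detected in 7 head libraries, namely left eyestalk replicates 2 and 3, right eyestalk replicate 1, left cephalic replicates 1 and 2, and right cephalic replicates 3 and 4. In right eyestalk replicate 2 a single gene held 70.8% of the counts. These 8 head libraries are called doubted below, and the shares at 0, the side pairs, the levels and the counts of calls by off number and by organ are also given without them.

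In the epipodial tentacle the 94 genes ran from 6.09 to 5222 CPM in their mean over 8 libraries, with a median of 21.2 CPM. Most were off at a single number: 64 genes were off at 1 number, 21 at 2 numbers and 9 at 3 numbers. At each of numbers 1 to 4 there were 40, 36, 26 and 31 genes off, and 34, 28, 39 and 44 genes on. The genes fell into 14 sets by the numbers at which they were off, and into 42 combinations of off and on numbers, so no number was the silent one for all of them. Each of the 94 genes has 4 epipodial pairs of a left and a right library, 376 pairs in all. Of these 133 were off and 145 on, 78 had under 20 CPM on both sides without being off, and 20 had 1 side at 20 CPM or more and 1 side below. The 78 low pairs had a median of 4.89 CPM, and 26 of them were under 1 CPM. The on pairs had a median of 46.2 CPM, from 21.3 to 11732 CPM, and 29 of them were over 100 CPM. Over the 43 genes with 2 or more on numbers the highest on number was a median of 1.60-fold above the lowest, among values that the rule held at 20 CPM or more. This fold was 7.62 in HDSC07448CG00010 and 6.09 in HDSC37254CG00010, and 1 gene, HDSC10268CG00020, exceeded 10-fold, at 376-fold. At the edge of the rule, HDSC49086CG00010 and HDSC10037CG00010 were inside with 20.6 CPM as the smallest of their 3 deciding values, and HDSC48205CG00010 and HDSC13043CG00010 were outside with 19.7 and 19.6 CPM.

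**Figure D1:**
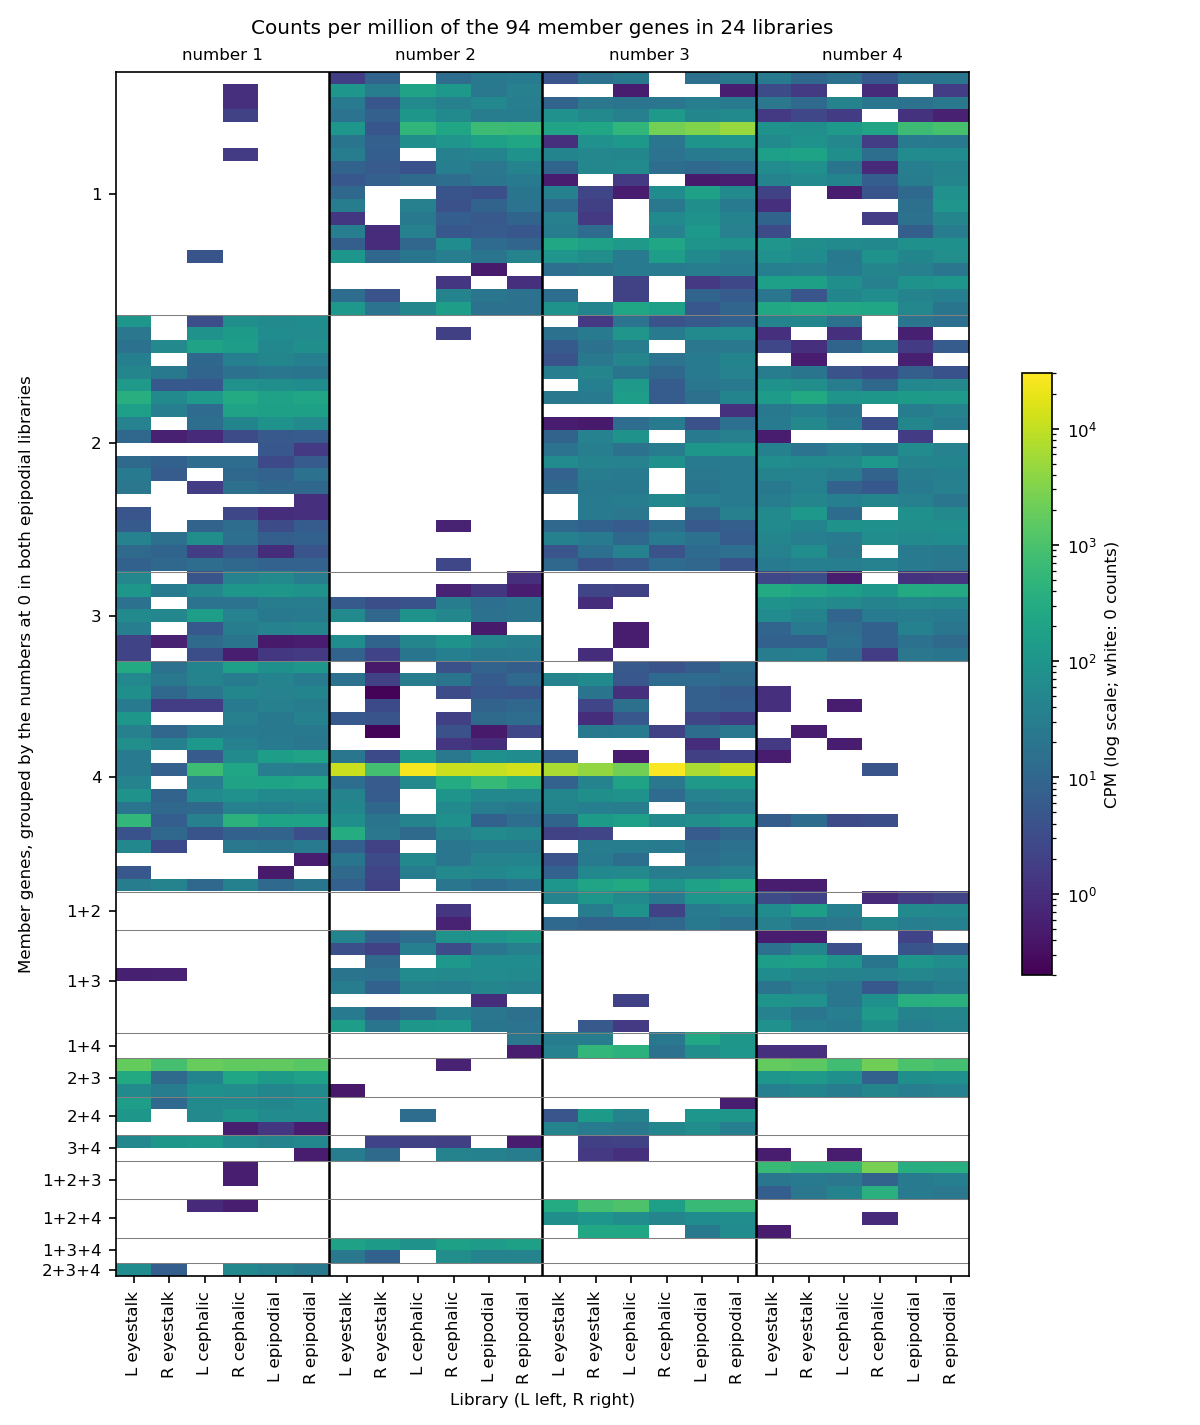
CPM (log colour scale, white for 0 counts) of the 94 genes, down the page, in the 24 libraries, ordered across by replicate number and then by organ and side. Genes are grouped by the numbers at which both epipodial libraries had 0 counts; the white blocks of those numbers extend over the eyestalk and cephalic columns, with 480 of 532 head values at 0.

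In the 94 genes, the head values of a number mostly went with the epipodial state of that number. The rule bears on this, since each gene had to reach 20 CPM in a library of each head organ. The 50 genes that missed only this condition had 41.5% of head values at 0 at numbers where they were not off, against 19.1% in the 94 genes. Where a gene of the 94 was off in the epipodial tentacle, 480 of 532 head values (90.2%) were 0, 517 (97.2%) were at most 3 counts, and 0 reached 20 CPM. Where the gene was on, 41 of 580 head values (7.07%) were 0 and 415 (71.6%) reached 20 CPM. These values share libraries and genes, and the share at 0 in a single head library was 71.0% to 100% for genes off at its number and 0% to 32.4% for genes on. At numbers with low epipodial levels the head was intermediate, with 123 of 312 values (39.4%) at 0 and 43 (13.8%) at 20 CPM or more. Where the epipodial sides lay on either side of 20 CPM, 22 of 80 head values (27.5%) were 0 and 29 (36.3%) reached 20 CPM.

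The 2 head organs had like shares. Of the eyestalk values 244 of 266 (91.7%) were 0 at off numbers, against 16 of 290 (5.52%) at on numbers, where 199 (68.6%) reached 20 CPM. Of the cephalic values 236 of 266 (88.7%) were 0 at off numbers, against 25 of 290 (8.62%) at on numbers, where 216 (74.5%) reached 20 CPM. Without the 8 doubted libraries, 217 of 261 values (83.1%) were 0 at off numbers and 250 (95.8%) were at most 3 counts, against 4 of 306 (1.31%) at 0 at on numbers, where 275 (89.9%) reached 20 CPM. Within those 8 libraries, 263 of 271 values (97.0%) were 0 at off numbers and 37 of 274 (13.5%) at on numbers. The doubted libraries held 37 of the 41 zeros at on numbers.

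**Figure D2:**
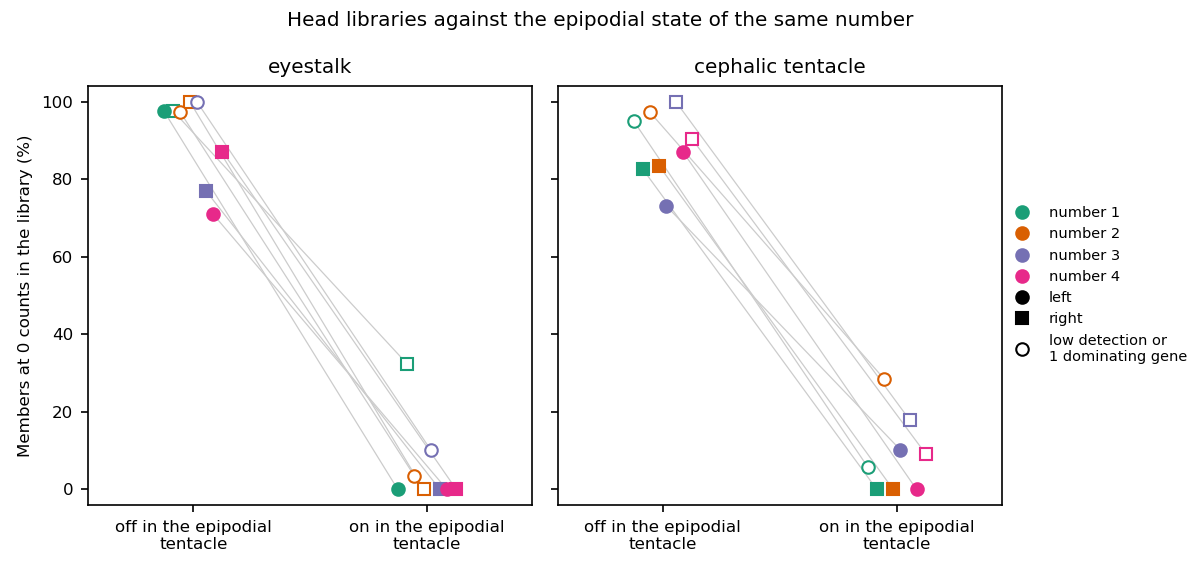
Share of the 94 genes at 0 counts (percent, vertical axis) in each of the 16 head libraries, among genes off (left) and genes on (right) in the epipodial tentacle of the same number; lines join the values of 1 library, colour gives the number, circles are left and squares right, and open symbols mark the 8 libraries of low detection or with a dominating gene. The share at off numbers was 71.0% to 100% over eyestalk libraries and 73.1% to 100% in the cephalic tentacle.

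The zeros fell on the number that was off in the epipodial tentacle. For genes off at number 1, 97.5% of the eyestalk values of number 1 were 0, and for genes off at numbers 2, 3 and 4 the values of the same number were 0 in 98.6%, 88.5% and 79.0%. In the cephalic tentacle these shares were 88.8%, 90.3%, 86.5% and 88.7%. At numbers where the same genes were not off, 0% to 26.3% of the eyestalk values and 9.52% to 35.4% of the cephalic values were 0. The shares for equal and for unequal numbers do not overlap in either organ, but the rule bears on the unequal-number shares. Zeros were also common over all genes, since 3682 to 11090 of the 19700 listed genes were detected in an eyestalk library. In a cephalic library 3919 to 11197 were detected. The same shares by number were not computed over all genes. The lowest of the equal-number shares, in the eyestalk of number 4, came from 2 libraries with 10385 and 11090 detected genes, neither of them doubted. Without the doubted libraries, which include both eyestalk libraries of number 2, the equal-number shares were 97.5%, 76.9% and 79.0% in the eyestalk of numbers 1, 3 and 4 and 82.5%, 83.3%, 73.1% and 87.1% in the cephalic tentacle of numbers 1 to 4. The unequal-number shares were then 0% to 15.4% of eyestalk values and 4.76% to 18.2% of cephalic values.

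**Figure D3:**
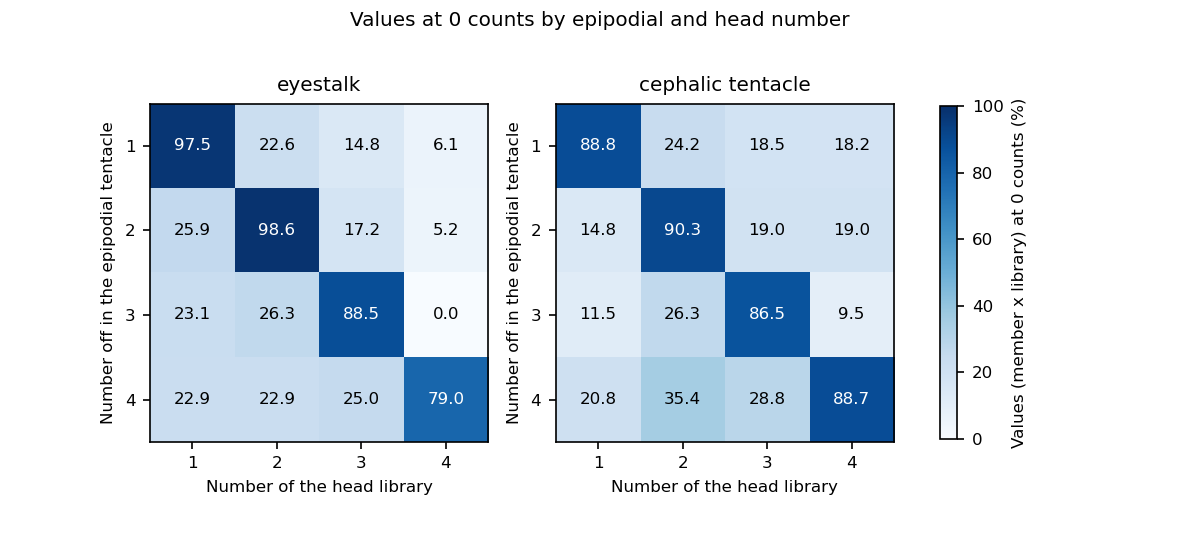
Share of values at 0 counts (percent, printed in each square) in the eyestalk (left panel) and the cephalic tentacle (right panel), with the number at which genes were off in the epipodial tentacle down the page and the number of the head library across. Squares off the diagonal leave out genes that were also off at the number of the head library; the diagonal holds 79.0% to 98.6% for eyestalks and 86.5% to 90.3% for cephalic tentacles.

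Genes outside the list that were silent in a pair of epipodial libraries had more zeros at their other numbers. The 94 genes had 90.2% of head values at 0 at off numbers and 19.1% (186 of 972) at all others. A wider group of 446 other genes, at 0 counts in both epipodial libraries of a number and at 20 CPM in some head library, had 78.3% (2277 of 2908) at the epipodially silent numbers and 40.9% (1731 of 4228) at the others. The 50 genes with the epipodial on-or-off pattern that lacked 20 CPM in a head organ had 90.1% (263 of 292) and 41.5% (211 of 508). These groups differ from the 94 genes by the rule itself, so no test was made between them.

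For the test, edgeR's quasi-likelihood model was fitted to the 16 head libraries, and each gene was read from the difference between its own off numbers and the rest. The rule bears on this difference: since 0 head values reached 20 CPM at off numbers, each gene met the head condition of the rule at a number where it was not off. The counts for the 94 genes are therefore given as a description, and nothing is read from them against the background. After Benjamini-Hochberg adjustment over 11355 genes, 58 of the 94 genes (61.7%) were lower at their off numbers and 0 were higher, while 0.255% to 1.26% of all genes were called lower in the differences used. Of the 4091 genes at 20 CPM in a library of each head organ, 0.684% to 2.10% were called lower. Leaving out the head condition was a choice made after the data were seen. The epipodial values alone gave 144 genes, of which 66 (45.8%) were called lower and 0 higher, with 5 not tested. Of these 66, 58 were among the 94 genes. Of the 50 genes that the head condition had left out, 8 (16%) were called lower. For 13 of the 94 genes another number also had 0 counts in all 4 head libraries. Their difference could not be judged, and the test called 0 of them. Of the other 81 it called 58, and all 81 fitted differences were below 0, with a median log2 difference of -7.50, while the medians over all genes tested were -0.68 to 0.68. Over their off head libraries 57 genes had 0 counts in all, and their fitted values depend on a prior count; with these genes at a floor of 3 counts over the off libraries, the median log2 difference from pooled counts was -6.47 over all 94 genes.

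By set, the calls are again a description, since the rule bears on each of these differences. The background given beside them is the share of all tested genes called lower in the same difference, and nothing is read from the 2 together. Of the genes off at number 1 alone 10 of 19 were called, against a background of 0.326%, and of those off at number 2 alone 10 of 20, also against 0.326%. Of those off at number 3 alone 3 of 7 were called, against 0.255%, and of those off at number 4 alone 11 of 18, against 0.379%. Among genes off at a pair of numbers, 7 of 8 were called for numbers 1 and 3 (background 0.625%), 3 of 3 for 1 and 2 (0.608%), 3 of 3 for 2 and 3 (0.44%), 1 of 3 for 2 and 4 (0.757%), 1 of 2 for 3 and 4 (0.423%) and 0 of 2 for 1 and 4 (0.476%). Among genes off at 3 numbers, 3 of 3 were called for 1, 2 and 3 (1.13%), 3 of 3 for 1, 2 and 4 (1.26%), 2 of 2 for 1, 3 and 4 (1.15%) and 1 of 1 for 2, 3 and 4 (0.731%). Both genes of numbers 1 and 4 are among the 13 that could not be judged. The rest of these 13 stay in the denominators of other sets and count there as not called. Among them are HDSC13500CG00010 (off at 1 and 3) and HDSC07701CG00010 (off at 2). HDSC03551CG00060 (off at 2) and HDSC47342CG00010 (off at 3), named after their values were seen, are also among them.

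Both of the following tests were added after the data were seen. A test of any difference between the 4 numbers called 79 of the 94 genes (84.0%) with edgeR at an adjusted p under 0.05, against 3.16% of all genes tested and 6.09% of the 4091 genes at 20 CPM in each head organ; the rule bears on this count as well. A test of whether the number effect differed between the eyestalk and the cephalic tentacle called 0 of the 94 genes, against 0% of all genes, with 2 of the 94 (2.13%) and 0.564% of all genes at an unadjusted p under 0.05. That fit had 6 residual degrees of freedom. Without the 8 doubted libraries the test of off numbers against the rest kept 1 residual degree of freedom and called 20 of 94, against 0% to 0.149% of all genes by set. With the eyestalk alone it called 23, against 0.0900% to 0.610%, and with the cephalic tentacle alone 15, against 0.0106% to 0.160%.

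In the single genes below, the rule bears on the difference between off numbers and the rest, so folds and adjusted p-values are a description. Whether a number stands for 1 animal is not known, so they may not cover the spread between animals. The highest of the 94 genes was HDSC10268CG00020, off at number 4. At number 4 it had 0 counts in both eyestalk libraries, 0 and 5 counts in the left and right cephalic tentacle, and 0 in both epipodial libraries. At numbers 2 and 3 it reached 842 to 11348 CPM in the eyestalk, 2399 to 28328 CPM in the cephalic tentacle and 6503 to 13111 CPM in the epipodial tentacle. Number 1 stood between: it had 28.2 and 7.68 CPM in the left and right eyestalk, 730.0 and 235 CPM in the left and right cephalic tentacle, and 32.1 and 30.3 CPM in the epipodial tentacle. Pooled over the head organs the other numbers were 6459-fold higher than number 4 (counting interval 2767 to 19892), and edgeR gave a log2 difference of -11.80 (SE 1.15, adjusted p = 8.3e-21). The order number 4, number 1, then numbers 2 and 3 held in each organ, and the values of these 3 levels did not overlap within any organ.

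HDSC37254CG00010 was off at number 1, with 0 counts in all 4 head and both epipodial libraries. At the other numbers its lowest, median and highest of 6 libraries were 4.91, 97.2 and 236 CPM in the eyestalk, 124, 363 and 2488 CPM for the cephalic tentacle, and 603, 822 and 4815 CPM in the epipodial tentacle. The lowest eyestalk value came from the library with a dominating gene. Its head level was at least 459.7-fold lower at number 1, taking 3 counts over the 4 libraries as the floor, with an edgeR log2 difference of -12.23 (SE 1.44, adjusted p = 1.3e-13). HDSC07448CG00010, also off at number 1 alone and at 0 in all of its libraries, had 1.05 to 85.4 CPM in the eyestalk, 1.76 to 118 CPM in the cephalic tentacle and 25.3 to 223 CPM in the epipodial tentacle at the other numbers. It was at least 103.6-fold lower at number 1 in the head organs (edgeR adjusted p = 6.3e-05).

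HDSC06736CG00020 was off at numbers 2 and 3, a gene singled out after its values were seen, so its p-value is a description only. At those numbers it had 0 counts in 4 of 4 eyestalk libraries, 3 of 4 cephalic libraries and 4 of 4 epipodial libraries, and 1 count in the remaining library, right cephalic replicate 2. At numbers 1 and 4 it had 1829 and 1728 CPM in the left eyestalk, 913 and 1513 CPM in the right eyestalk, 1877 and 792 CPM in the left cephalic tentacle, and 1599 and 2292 CPM in the right cephalic tentacle. The epipodial libraries of numbers 1 and 4 had 1647 and 1018 CPM on the left and 1330 and 838 CPM on the right. All 12 values at on numbers lay between 792 and 2292 CPM in all 3 organs, and the head pool was 22949-fold higher at on numbers (counting interval 4118 to 906465), from 1 count at off numbers (edgeR log2 difference -13.54, SE 0.96, adjusted p = 3.8e-41).

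Genes that were off at 3 numbers had a single on number. HDSC07892CG00010, off at numbers 1, 2 and 3 and also singled out after its values were seen, had 0 counts in 11 of 12 head libraries of those numbers and 1 count in right cephalic replicate 1. At number 4 it had 641 and 461 CPM in the left and right eyestalk, 472 and 2661 CPM in the left and right cephalic tentacle, and 332 and 360.0 CPM in the left and right epipodial tentacle. The head pool at number 4 was 18874-fold higher (counting interval 3386 to 745620), and edgeR gave an adjusted p of 9.6e-49. HDSC04053CG00050, off at numbers 1, 2 and 4 and chosen likewise, had 0 counts in 10 of 12 head libraries and 1 count in each cephalic library of number 1. At number 3 it had 306 and 865 CPM in the left and right eyestalk, 1064 and 165 CPM in the left and right cephalic tentacle, and 643 and 639 CPM in the left and right epipodial tentacle (edgeR adjusted p = 1.1e-36). In both genes the widest gap between the sides was in the cephalic tentacle, where the right libraries of numbers 3 and 4 are doubted ones.

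**Figure D4:**
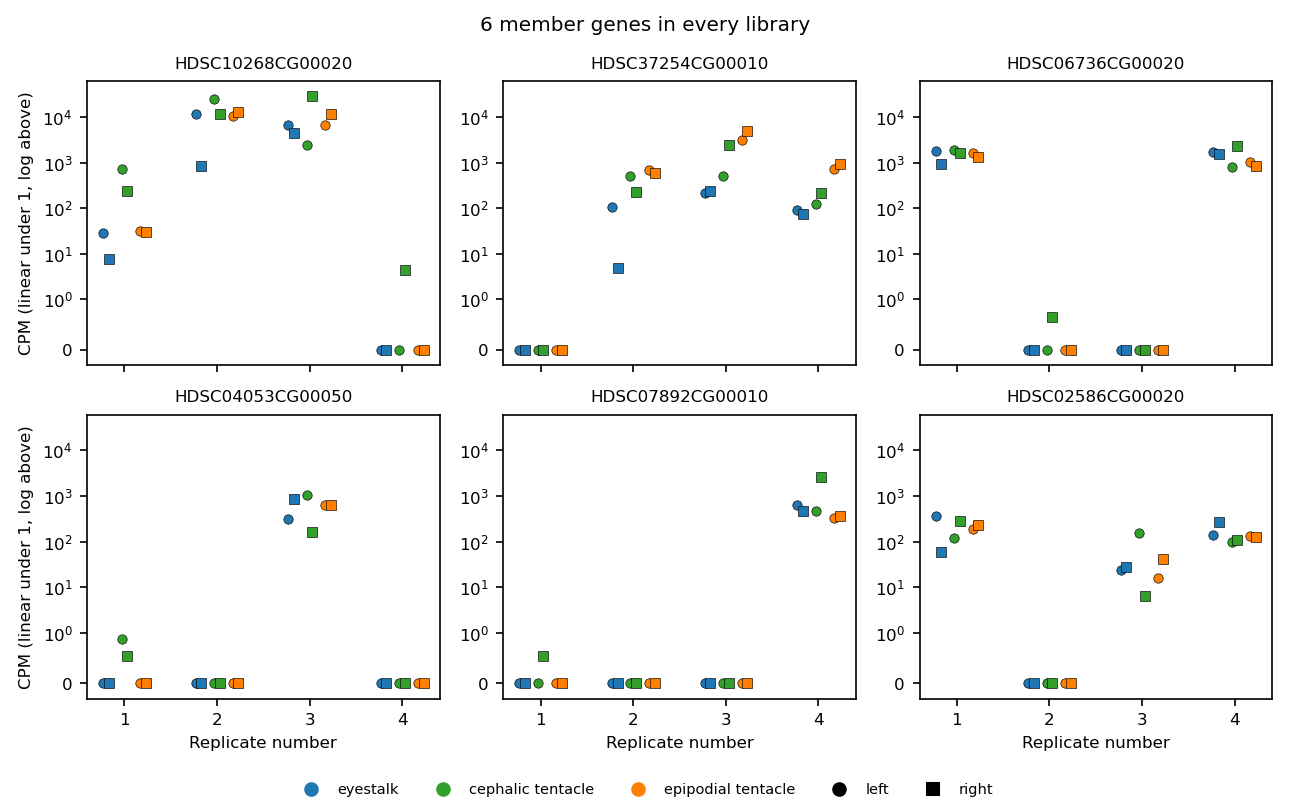
CPM (vertical axis, linear under 1 and logarithmic above) of 6 of the 94 genes by replicate number, in the eyestalk (blue), cephalic tentacle (green) and epipodial tentacle (orange), with circles for left and squares for right libraries. Each gene lies at or within 5 counts of 0 in all libraries of its off numbers; HDSC10268CG00020 also shows an intermediate level at number 1.

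The genes off at number 2 alone included HDSC02586CG00020, which had 0 counts in all 4 head and both epipodial libraries of number 2. At numbers 1 and 4, where it was on, it had 60.3 to 363 CPM in the eyestalk, 97.2 to 288 CPM in the cephalic tentacle and 124 to 233 CPM in the epipodial tentacle. At number 3 it lay below these ranges in every library but left cephalic replicate 3, with 23.7 and 27.6 CPM in the left and right eyestalk, 151 and 6.34 CPM in the left and right cephalic tentacle, and 16.1 and 42.5 CPM in the left and right epipodial tentacle. It was at least 429-fold lower at number 2 in the head organs (edgeR adjusted p = 4.2e-08). HDSC07701CG00010, off at number 2, had 0 counts in all 4 head libraries of number 2 and 0 in all 4 of number 3 as well. With 2 numbers silent in the head, the difference between number 2 and the rest could not be judged for this gene (edgeR adjusted p = 1). Its left and right epipodial libraries of number 3 held 0 and 2 counts, and at numbers 1 and 4 it had 25.2 to 169 CPM in the eyestalk, 0 to 192 CPM in the cephalic tentacle and 29.7 to 179 CPM in the epipodial tentacle.

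At numbers 1 and 3, HDSC02634CG00010 had 0 counts in all 8 head and all 4 epipodial libraries. At numbers 2 and 4 it had 0 to 176 CPM in the eyestalk, 0 to 115 CPM in the cephalic tentacle and 64.7 to 94.8 CPM in the epipodial tentacle, and both zeros came from libraries of low detection. It was at least 298-fold lower at its off numbers in the head organs (edgeR adjusted p = 1.0e-09). HDSC13500CG00010 was off at the same numbers and had 0 counts in 7 of 8 head libraries there and 4 counts in left cephalic replicate 3. It was also at 0 in all 4 head libraries of number 2, where its left and right epipodial libraries held 2 and 0 counts, so its difference could not be judged either (edgeR adjusted p = 1). At number 4 it had 96.5 and 84.9 CPM in the left and right eyestalk, 21.4 and 79.2 CPM in the left and right cephalic tentacle and 357 and 381 CPM in the left and right epipodial tentacle.

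HDSC09979CG00010, off at number 4, had 0 counts in all 6 libraries of number 4. At the other numbers its lowest, median and highest of 6 libraries were 0, 11.7 and 41.4 CPM in the eyestalk, 23.3, 121 and 306 CPM for the cephalic tentacle, and 113, 209 and 587 CPM in the epipodial tentacle. It was at least 161-fold lower at number 4 in the head organs (edgeR adjusted p = 1.9e-06), and its eyestalk and cephalic ranges overlapped. HDSC00928CG00070, off at numbers 1 and 2 and singled out after its values were seen, had 0 counts in all 8 head libraries there. It had 0 to 3.08 CPM in the head organs at number 4, and at number 3 it had 42.1 and 108 CPM in the left and right eyestalk, 57.2 and 27.5 CPM in the left and right cephalic tentacle, and 103 and 112 CPM in the left and right epipodial tentacle. Both epipodial libraries of number 4 were low as well, at 1.68 and 2.35 CPM. The head values of number 4 lay under those of number 3, and 1 of them, left cephalic, was 0 like those of the off numbers.

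Head reads at off numbers were few, and the genes named for them here were chosen after their values were seen. Of the 532 head values at off numbers 52 were above 0, in 37 genes: 22 were 1 count, 15 were 2 or 3 counts and 15 were over 3. The highest count was 27, in HDSC00100CG00040 in right eyestalk replicate 4 (13.8 CPM), and the highest level was 14.2 CPM from 7 counts, in HDSC03566CG00060 in left cephalic replicate 2. HDSC00100CG00040, off at number 4, was the 1 gene with reads in every head library of its off number, at 13 and 27 counts in the left and right eyestalk and 6 and 4 counts in the left and right cephalic tentacle. At number 1 it had 536 and 7.09 CPM in left and right eyestalks and 36.6 and 422 CPM in the left and right cephalic tentacle, and left eyestalk replicate 3 had 9.46 CPM, so its values at number 4, up to 13.8 CPM, overlapped those of other numbers in doubted libraries. HDSC03950CG00020, off at number 3, had 5 counts in right eyestalk replicate 3 and 4 counts in left cephalic replicate 3 and 0 in the other head libraries of that number. The rest were 60.7-fold higher when pooled (counting interval 31.9 to 133), although number 2 had only 0 to 0.645 CPM in the head, and edgeR did not call the difference (log2 -3.56, SE 1.30, adjusted p = 0.225). In all, 57 genes had every head library of their off numbers at 0, 84 had each at no more than 3 counts, 59 had every head library of their on numbers above 0, and 31 met the first and the last.

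For these genes the left and right head libraries of a number were mostly alike in the states defined next. A pair of 1 left and 1 right library was called opposite for a gene when 1 side had 0 counts and the other at least 20 CPM, among pairs in which each side was in 1 of these states. In the eyestalk 19 of 232 pairs of equal number (8.19%) were opposite, against 355 of 640 pairs of unequal number (55.5%). In the cephalic tentacle 28 of 241 pairs of equal number (11.6%) were opposite, against 366 of 697 (52.5%). The rule bears on the unequal-number shares, since each gene had to reach 20 CPM in a library of each head organ. The same shares over other genes are not given, so these are a description. Without the 8 doubted libraries 0 of 62 eyestalk pairs of equal number, all of number 4, and 99 of 183 of unequal number (54.1%) were opposite; every cephalic pair of equal number contained such a library, so no value can be given there. In the epipodial tentacle 1 of 279 pairs of equal number (0.358%) and 437 of 703 of unequal number (62.2%) were opposite, counts that the choice of the genes constrained.

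**Figure D5:**
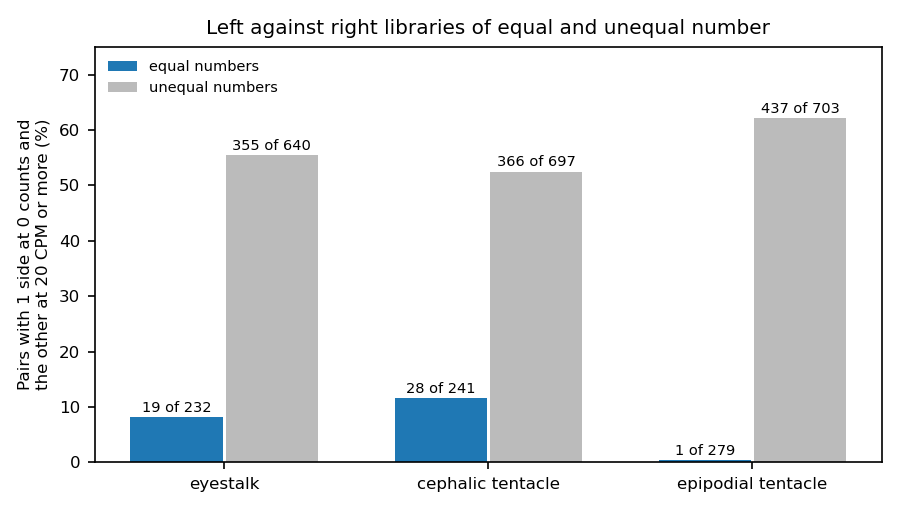
Share of left-right library pairs (percent, vertical axis from 0) with 1 side at 0 counts and the other at 20 CPM or more, for libraries of equal number (blue) and unequal number (grey) in each organ, with the pairs counted above each bar. Equal numbers gave 8.19% for eyestalks and 11.6% for cephalic tentacles, against over 50% for unequal numbers. The epipodial bars are constrained by the rule, which also bears on the grey bars of the head organs.

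At on numbers the epipodial level was held at 20 CPM or more by the rule and the head level was not, so the differences between them are a description only. On the log2(CPM + 1) scale, the level of the eyestalk, from the mean CPM of both sides, minus that of the epipodial tentacle had a median of -0.35 over 145 gene-number pairs (quartiles -1.26 and 0.42), and the cephalic tentacle minus the epipodial tentacle had a median of -0.28 (quartiles -0.93 and 0.24). Without the doubted libraries the medians were 0.29 for eyestalks (117 pairs) and -0.04 for the cephalic tentacle (145 pairs), so the direction in the eyestalk turned with those libraries. Where both were at 20 CPM or more, the left and right libraries of an on number differed by a median of 0.49 log2 units in the eyestalk (70 pairs), 1.00 in the cephalic tentacle (79 pairs) and 0.27 in the epipodial tentacle (145 pairs). Every cephalic pair and those of 3 of the 4 numbers in the eyestalk contain a doubted library, so the organs are not compared; the eyestalk pairs of number 4, without one, had a median of 0.39 log2 units (39 pairs).

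No gene of the 94 passed the test between the eyestalk and the cephalic tentacle without a term for the number. In the edgeR model of all 24 libraries, 0 of the 94 genes were higher in the eyestalk, against 0.932% of the genes tested, and 0 were lower, against 1.95%. At an unadjusted p under 0.05 there were 0 of the 94 genes, against 14.7% of all genes and 9.61% of the 4091 genes at 20 CPM in each head organ. The rule left out genes at 20 CPM in only 1 head organ, which moves these counts towards 0, so nothing is read from them against the background. The log2 differences lay above 0 in 46 genes and below 0 in 48, with a median of -0.02 against 0.04 over all genes, and the smallest adjusted p was 0.370. In this fit the spread between numbers is part of the error. When the number entered as a block, edgeR called 2 of the 94 genes (2.13%) lower in the eyestalk, against 2.98% of all genes. These were HDSC09979CG00010, with a log2 difference of -2.24 (SE 0.64, adjusted p = 0.0183), and HDSC37254CG00010, with -2.02 (SE 0.51, adjusted p = 0.00493). DESeq2 called 1 of the 94 genes (1.06%) higher, against 2.54% of all genes with an adjusted p. It was HDSC01871CG00010 (log2 difference 10.92, adjusted p = 0.0401). That gene, off at numbers 1 and 4, had 59 and 67 counts in left and right eyestalk replicate 3 (31.0 and 31.9 CPM). It had 11 counts in right cephalic replicate 3, which is 23.3 CPM in that small library. The other 13 head libraries, left cephalic replicate 3 among them, had 0 counts.

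The coding length of the 94 genes, recovered from the ratio of counts to FPKM, had a median of 596 bases (quartiles 388 and 859, range 168 to 2457), against 603 over all 17233 genes with a length and 837 over 3111 other genes at 20 CPM in an epipodial pair and in each head organ. The stem of the identifier, before the letters CG, was held by no other listed gene for 47 of the 94 genes (50%), against 31.4% of all genes and 21.1% of those 3111 genes. The labels and files do not say what the stem stands for. The 94 genes had 93 stems. The 1 shared stem joined HDSC05754CG00010, off at numbers 1 and 4 and on at 3, and HDSC05754CG00020, off at numbers 1, 2 and 4 and on at 3; both had a coding length of 477 bases, and reads of near-identical copies could be split between them.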

How the data were processed

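Polyadenylated RNA of 24 libraries was extracted with TRIzol, per the labels' protocols, which name VAHTS Universal V6 for the libraries. Per the submitters' processing notes, fastp, HISAT2 and HTSeq were used, with no versions given. Genome build, annotation and strandedness: not given in the sources used here, so overlapping genes and near-identical copies are uncertain. The authors deposited whole-number read counts without normalization, and FPKM values that were used here only to recover coding lengths: these came out whole (within 0.001) for 100% of 17233 genes, and 99.4% were divisible by 3.

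The 94 genes, the thresholds and the lists were chosen with earlier results of these data known. Tests used edgeR 4.0.16 under R 4.3.3, TMM factors, genes of at least 10 counts in all, and Benjamini-Hochberg adjustment at 0.05 over all genes. The 16 head libraries were fitted with 4 organ-side groups and the number (9 residual degrees of freedom), and read in 7 splits of the numbers. All 24 libraries were fitted with 6 group means (18 residual degrees of freedom) for the organs. The fits were tested on simulated data. DESeq2 1.42.0, other filters and factors, other thresholds of the rule and left-out libraries were alternatives. Named genes are the 2 with the highest epipodial mean in each set of at least 8 genes. Some others are named for a stated property, namely the edge of the rule, a call or a shared stem. The rest were chosen after their values were seen. Gene lists and markers could not be matched to identifiers, since the files pair none with names. Libraries of equal number deviated together between the eyestalk and the cephalic tentacle (correlations 0.45, 0.36, 0.21 and 0.22 over 7341 genes, bound 0.1). These values were above the bound, so the number was used to pair libraries of these organs. No such values are given for unequal numbers or for the epipodial tentacle. Whether a number stands for 1 animal was not tested. Between libraries the chi-square per gene was at least 19.5 within a group and at least 3.48 within a number, so none was counted as a duplicate.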

Additional observations from a re-analysis of the deposited data

Results flagged for a closer look

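In 8 of 50 sets of 8 libraries of an organ, 1 library of a described gene lay far from the rest; chance alone gives about 1 in 20, and a gene with reads at a single number has few high libraries by its choice. In the eyestalk, HDSC00928CG00070 had 108 CPM and HDSC04053CG00050 had 865 CPM in right eyestalk replicate 3, and HDSC07701CG00010 had 169 CPM in left eyestalk replicate 1. In the cephalic tentacle, HDSC37254CG00010 had 2488 CPM in right replicate 3, HDSC07892CG00010 had 2661 CPM and HDSC13500CG00010 had 79.2 CPM in right replicate 4, HDSC04053CG00050 had 1064 CPM in left replicate 3, and HDSC07701CG00010 had 192 CPM in right replicate 1. Each high library belongs to a number at which the gene is on in the epipodial tentacle. Little is read from this, since no head value at an off number reached 20 CPM. Of the high values, 3 came from right cephalic replicates 3 and 4, which are among the libraries of low detection.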

How the results depend on the processing

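The 58 genes lower at their off numbers in the head organs became 20 without the 8 doubted head libraries, 23 with the eyestalk alone, 15 with the cephalic tentacle alone, and 82 of 200 (41.0%) with 10 CPM in the rule; the first 3 use fewer samples. Leaving out 1 library gave 44 to 57 (background 0.116% to 1.24% by set), 50 CPM in the rule 26 of 31 (0.255% to 1.26%, as for 10 CPM), and the other settings tried 43 to 68 with 0 higher calls (0.114% to 4.22%). These settings did not all cover the same genes. The filter of edgeR kept 84 of the 94 genes and 52 were called, and a rule on CPM with TMM factors chose 81 genes, of which 51 were called. Of the 68 calls of DESeq2, 53 were among the 58. For the 94 genes, all 81 differences that could be judged stayed below 0 with library totals alone, which moved the median log2 difference over all genes at number 2 to -1.52, against -0.68. Chosen after seeing the data, off against on numbers only gave 75 (background 0.229% to 1.26%), and the rule without its head condition 66 of 144. The organ comparison kept 0 calls, 0 to 0 with 1 library left out, except 2 with the replicate block and 1 with DESeq2. The share of head values at 0 at off numbers was 83.1% without the doubted libraries and 97.2% with at most 3 counts taken as off, and 89.5% to 91.4% with 1 library left out. At the other numbers it was 24.1% with 10 CPM and 14.8% with 50 CPM in the rule, 9.98% without the doubted libraries and 25.3% with at most 3 counts taken as off, and 17.6% to 20.4% with 1 library left out. Opposite head pairs of equal number, 9.94% in all, were 14.4% with 10 CPM, 2.82% with 50 CPM, and 8.15% to 11.4% with 1 library left out. Without the doubted libraries they were 0%, but only 62 pairs remained, all from the eyestalk of number 4 and none from the cephalic tentacle. The cause of these shifts was not tested. The smallest library, of 473072 counts, limits what a 0 can show.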
